A study of Mus musculus with 3 samples.

Results

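Lipoproteins carry cholesterol and triglyceride between cells, and apolipoproteins are the proteins on their surface that solubilize the lipid and bind to receptors. The 6 genes described here are *Apoe*, *Apoc1*, *Apod*, *Lrp1*, *Vldlr* and *Abca1*, found by their symbols among the 32285 genes of the count files, and each symbol matched 1 gene. *Apoe* encodes the apolipoprotein that is the ligand of the LDL receptor family, *Apoc1* a small apolipoprotein that restrains lipoprotein lipase and receptor uptake, and *Apod* a lipocalin that binds arachidonic acid and other small lipids. *Lrp1* and *Vldlr* encode receptors of the LDL receptor family that take up lipoproteins carrying ApoE, and *Abca1* the transporter that loads cholesterol and phospholipid onto lipid-poor apolipoproteins. In adipose tissue, adipocytes and their precursors make ApoE, and adipocytes store and release cholesterol. The genes were chosen by their measured levels in these same libraries, so that all levels and differences below are descriptions, with no test.

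The cells were the stromal vascular fraction (SVF) of inguinal white fat, which is subcutaneous, from mice aged 4 weeks, in 1 library each for wild-type, *Mgp*-KO and *Pd*-KO. *Mgp*-KO mice lack *Mgp*, the gene of matrix Gla protein, in the whole body. *Pd*-KO mice carry floxed *Mgp* alleles and a *Pdgfra*-Cre transgene, which deletes *Mgp* in cells that express, or descend from cells that expressed, *Pdgfra*. Cells of several mice were pooled in each library, and no library of floxed mice without Cre was used here, so wild-type was the reference for both knockouts. Dead and CD45-positive (immune) cells had been sorted out in all 3 libraries, and adipocytes full of lipid are lost when the fraction is spun down. With 1 library per genotype, a difference between genotypes cannot be told apart from a difference between libraries, and each interval given in brackets is a 95% interval for counting error only.

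After barcodes with at least 2000 unique molecular identifiers (UMIs, 1 per captured transcript) and at most 10% mitochondrial UMIs were kept, the wild-type library had 10511 cells, that of *Mgp*-KO 12575 and that of *Pd*-KO 8819, with medians of 12802, 6445 and 8269 UMIs. Pairs of libraries shared 35 to 40 cell barcodes. Cells were gated by marker genes, and *Pdgfra*-positive adipose progenitor cells (APCs) were the largest class, with 6824, 8867 and 6026 cells. The targeted gene, *Mgp*, was at 499.8 counts per 1000000 UMIs (CPM) in the wild-type APCs, at 0.726 in *Mgp*-KO and at 1.05 in *Pd*-KO. In *Pd*-KO, *Mgp* was lower than in wild-type past a log2 ratio of 1 in 9 of the 10 cell types compared. Endothelial and epithelial cells were among them, and the median was -6.46. Pericytes were the exception, at -0.90 against -8.89 in the APCs, and the reason was not tested. Within the APCs, lists of markers set apart *Dpp4* and *Pi16* interstitial progenitors, *Icam1* preadipocytes, Aregs (stromal cells that regulate adipogenesis) and stromal cells with *Col18a1*. The genes most raised in this last group over all other cells were led by *Crabp1*, *Scube1* and *Stra6*. None of its own markers was among the first 10, as also in smooth muscle cells, epithelial cells and neurons. Its name thus gives only the gate. By its header, the wild-type matrix was written by version 4 of Cell Ranger and both knockout matrices by version 7.1.0. Neither says whether reads of introns were counted. Barcodes with 10 to 100 UMIs served as free RNA, the transcripts that float in the cell suspension and enter droplets with any cell. Wild-type also had 48256 barcodes of 101 to 500 UMIs, against 1160 in *Mgp*-KO and 2209 in *Pd*-KO. The band used may thus not hold free RNA alike in each library, which was not tested. Free RNA held *Mgp* at 359 CPM in wild-type, 1.27 in *Mgp*-KO and 6.28 in *Pd*-KO. Its part in the *Mgp* ratios above, also those of endothelial and epithelial cells, was not tested.

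*Apoe* and *Apoc1* are neighbors. By the GENCODE M21 annotation of mouse GRCm38, *Apoe* (ENSMUSG00000002985) spans 3.08 kb at chr7:19696109-19699188 and *Apoc1* (ENSMUSG00000040564) 3.18 kb at chr7:19689481-19692660, both on the minus strand with 3448 bases between them. *Apod* (ENSMUSG00000022548) spans 18.6 kb at chr16:31296192-31314808 on the minus strand. *Lrp1* (ENSMUSG00000040249) spans 83.0 kb at chr10:127538161-127621148 on the minus strand, and an antisense gene, *Gm16217*, lies within its bounds. *Vldlr* (ENSMUSG00000024924) spans 37.7 kb at chr19:27216484-27254231 on the plus strand, and *Abca1* (ENSMUSG00000015243) 129 kb at chr4:53030787-53159895 on the minus strand. The methods name mm10, which is the same assembly, whereas the processing notes name GRCm39. The annotation held 99.8% of the gene identifiers of the files.

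*Apoe* and *Abca1* are both known targets of the liver X receptors, which bind a pair of half-sites 4 bases apart (a DR4 element) when oxysterols are high. Their promoters are shown because the CPM of *Apoe* lay below wild-type and that of *Abca1* above it in the progenitors of both knockouts. Both windows run from 250 bases before to 50 after the start of the gene and come from RefSeq (GRCm38.p6), on the minus strand. Capitals in the *Abca1* window mark, in order along it, a GC box (GGGCGG), an E box (CACGTG), a second GC box, the letters TGACC and TAACC with 5 bases between them, and a TATA box (TATAAA). The paired letters leave out the last base of each half-site, so that the half-sites themselves lie 4 bases apart.
Apoe, chr7:19699139-19699438: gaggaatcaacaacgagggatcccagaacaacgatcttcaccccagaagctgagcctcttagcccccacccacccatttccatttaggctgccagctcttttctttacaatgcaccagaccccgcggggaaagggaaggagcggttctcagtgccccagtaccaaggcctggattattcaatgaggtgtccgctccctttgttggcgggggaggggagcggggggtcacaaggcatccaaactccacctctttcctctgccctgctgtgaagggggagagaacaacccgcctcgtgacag
Abca1, chr4:53159846-53160145: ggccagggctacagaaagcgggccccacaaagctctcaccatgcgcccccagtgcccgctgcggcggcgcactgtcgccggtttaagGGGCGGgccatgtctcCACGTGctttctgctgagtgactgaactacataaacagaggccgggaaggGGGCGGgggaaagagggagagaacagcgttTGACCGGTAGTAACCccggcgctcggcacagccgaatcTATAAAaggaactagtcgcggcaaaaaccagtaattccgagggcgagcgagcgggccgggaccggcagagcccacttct
On either strand, the paired letters were present in 16 of 32851 promoter windows (0.0487%), TATAAA in 13.6%, GGGCGG in 35.7% and CACGTG in 7.15%. None of these 4 was found in the *Apoe* window shown, which lies within 1 base of the start given by GENCODE. RefSeq lists 3 windows for *Apoe*, and the one at chr7:19698572-19698871 held TATAAA 2 times, once on each strand and overlapping. The paired letters are those known from the *Abca1* element and were chosen for that reason, so their presence in its window was fixed in advance. Other forms of the DR4 element were not searched, so their absence from the *Apoe* window does not show that it lacks one. The relation of these windows to the levels of either gene was not tested.

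*Apoe* was lower in the progenitors of both knockouts. Its level in the APCs was 7195 CPM in wild-type, 2332 in *Mgp*-KO and 722 in *Pd*-KO, a log2 ratio to wild-type of -1.63 [-1.63 to -1.62] in *Mgp*-KO and -3.32 [-3.33 to -3.30] in *Pd*-KO. Between the knockouts, whose files name the same software, the log2 ratio of *Pd*-KO to *Mgp*-KO was -1.69 [-1.71 to -1.68]. The median wild-type APC held 47 *Apoe* UMIs, the median *Mgp*-KO cell 5 and the median *Pd*-KO cell 0. After each cell was thinned to 2000 UMIs, an *Apoe* UMI was found in 87.5% of the wild-type APCs, 58.6% in *Mgp*-KO and 31.6% in *Pd*-KO, against 99.6%, 71.2% and 45.4% before thinning. Endothelial cells, given for comparison, had one in 82.0%, 54.6% and 46.5% after thinning, with medians of 6360, 3639 and 4184.5 UMIs against 14349.5, 6844 and 9431.5 in the APCs. The share of APCs was above that of endothelial cells in wild-type and *Mgp*-KO but below it in *Pd*-KO. Endothelial cells of *Pd*-KO held *Apoe* at 617 CPM, above free RNA at 449 CPM, so their share is a comparison and not a floor. Free RNA was estimated at 8.48% in the wild-type APCs, 0.953% in those of *Mgp*-KO and 2.10% in those of *Pd*-KO. The share by itself does not tell expression from free RNA, whose part was not tested.

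*Apoc1*, the neighboring gene, had the largest ratios of the 6. Its level in the APCs was 238 CPM in wild-type, 61.3 in *Mgp*-KO and 8.19 in *Pd*-KO. The log2 ratio to wild-type was -1.96 [-2.01 to -1.91] in *Mgp*-KO and -4.86 [-5.00 to -4.73] in *Pd*-KO, and that of *Pd*-KO to *Mgp*-KO was -2.90 [-3.04 to -2.77]. Thinned to 2000 UMIs, 22.1%, 6.69% and 1.56% of the APCs had an *Apoc1* UMI, against 6.0%, 1.11% and 0.401% of endothelial cells. *Apoc1* was carried by few cells, since the 5% of APCs with most of its UMIs held 43.4% of them in wild-type and 74.4% in *Mgp*-KO, against 24.1% and 32.1% for *Apoe*.

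The CPM of *Abca1* and *Lrp1* was somewhat higher in the knockouts, and that of *Apod* and *Vldlr* was nearer to wild-type. *Abca1* was at 70.7 CPM in the wild-type APCs, 130 in *Mgp*-KO and 138 in *Pd*-KO, with log2 ratios to wild-type of 0.88 [0.83 to 0.92] and 0.96 [0.91 to 1.01]. *Lrp1* was at 335, 421 and 519.6 CPM, with log2 ratios of 0.33 [0.31 to 0.36] and 0.63 [0.61 to 0.66]. Neither passed a log2 ratio of 1. *Vldlr* was at 73.8, 89.7 and 64.6 CPM, above wild-type by 0.28 [0.23 to 0.33] on the log2 scale in *Mgp*-KO and at -0.19 [-0.25 to -0.14] in *Pd*-KO. *Apod* was at 332, 393 and 352 CPM, with log2 ratios of 0.24 [0.22 to 0.26] and 0.08 [0.06 to 0.11]. With free RNA taken off, the ratios of *Apod* were 2.37 and 2.22, and with cells weighted equally -0.14 and -0.25, so that neither its direction nor its call was stable.

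A log2 ratio of at least 1 in size was used to call a gene. Of the 6 genes, 2 were lower past it in *Mgp*-KO over wild-type and 2 in *Pd*-KO over wild-type, in each case *Apoe* and *Apoc1*, and 0 were higher. Over all genes with at least 100 UMIs in the APCs of the libraries compared, 3.01% were lower and 17.9% higher in *Mgp*-KO over wild-type, and 5.83% lower and 20.7% higher in *Pd*-KO over wild-type. In *Pd*-KO over *Mgp*-KO, 4.59% of genes were lower and 2.62% higher, and again *Apoe* and *Apoc1* were the 2 members that were lower. The genes were chosen with these ratios in view, so nothing is read from their share.

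**Figure D1:**
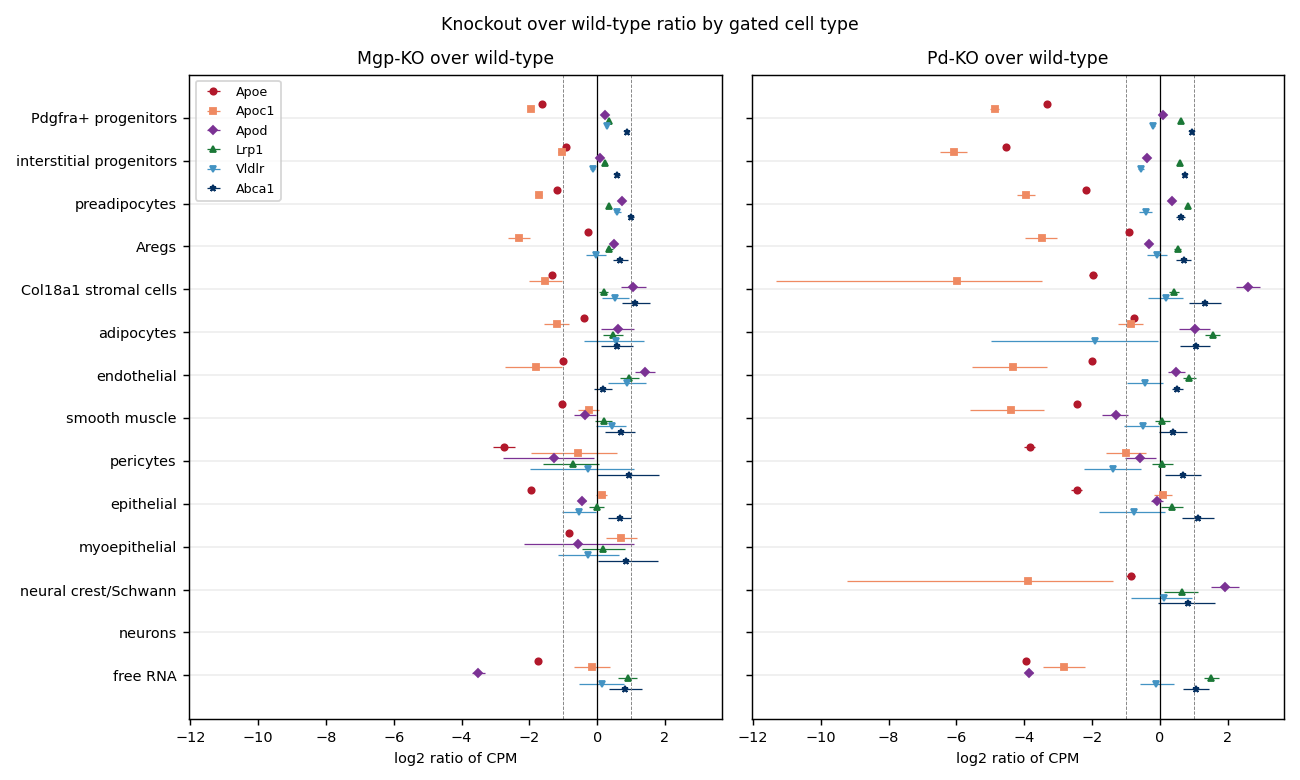
Log2 ratio of CPM (x axis) of each knockout library to wild-type by gated cell type and in free RNA (y axis), for cell types with at least 30 cells in both libraries. Points are ratios, bars 95% intervals for counting error, and dashed lines mark a log2 ratio of 1 in size. *Apoe* lies below 0 in each of the 10 cell types in both panels, and *Abca1* above 0. The cell types of a panel share the same libraries and free RNA.

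Genes that span more of the genome were higher in both knockouts over wild-type, which matters for the receptors and *Abca1*. Among the 200 genes with the span nearest to that of *Abca1*, the median log2 ratio was 0.97 in *Mgp*-KO and 1.15 in *Pd*-KO, so that *Abca1*, at 0.88 and 0.96, lay -0.09 and -0.19 from them. *Lrp1* lay -0.33 and -0.12 from the median of its 200 nearest genes, which was 0.67 and 0.76. *Vldlr* lay 0.07 and -0.50 from its own. The higher CPM of *Abca1* and *Lrp1* in the knockouts was thus no higher than that of other genes of their span, and its relation to genotype and to the software named for each library cannot be told apart. For *Apoe* the 200 nearest genes had medians of -0.16 and -0.30, and *Apoe* lay -1.47 and -3.02 from them, and *Apoc1* lay -1.79 and -4.56 from its own. In *Pd*-KO over *Mgp*-KO, where both files name 7.1.0, the medians for these spans lay between -0.09 and 0.21, and the log2 ratios were -0.47 [-0.53 to -0.42] for *Vldlr*, 0.30 [0.28 to 0.33] for *Lrp1* and 0.08 [0.04 to 0.13] for *Abca1*.

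**Figure D2:**
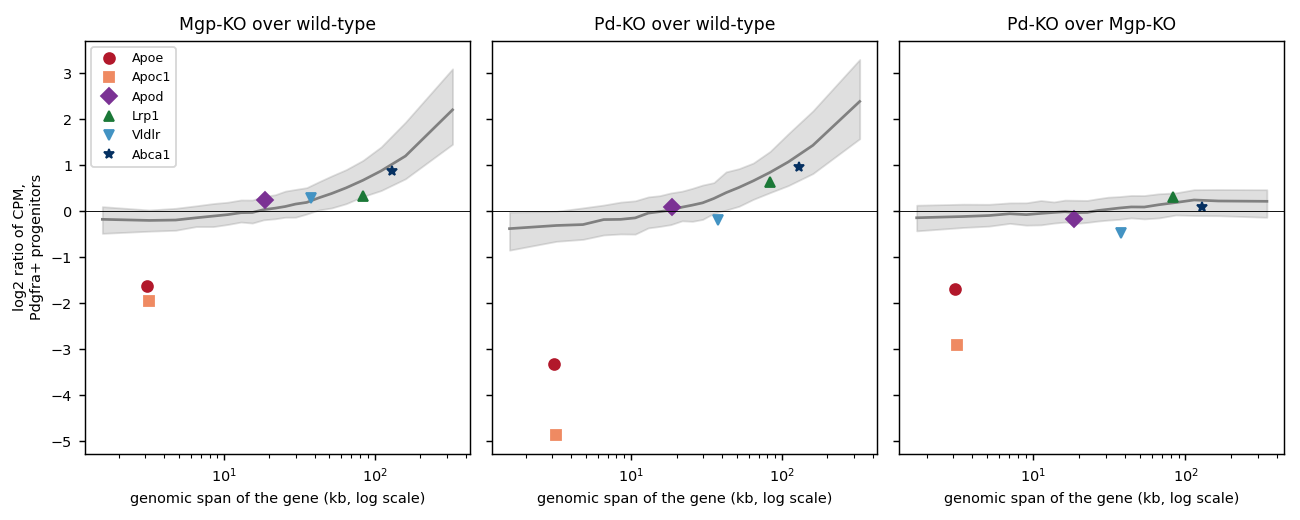
Log2 ratio of CPM in the APCs (y axis) against genomic span in kb (x axis, log scale), for the 3 pairs of libraries. The grey line and band are the median and the quartiles over 20 bins of genes by span, and symbols are the 6 genes. *Apoe* and *Apoc1* lie below the band in each panel, whereas *Lrp1* and *Abca1* follow the rise of the line in both panels against wild-type.

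Within the APCs, *Apoe* was highest in preadipocytes, the cells committed to become adipocytes. In wild-type it was at 12142 CPM in preadipocytes, 4920 in Aregs, 2685 in *Col18a1* stromal cells and 1522 in interstitial progenitors. In *Mgp*-KO the levels were 5332, 4111, 1075 and 799 CPM, and in *Pd*-KO 2690, 2599.5, 686 and 65.2 CPM. The order of the 4 groups was the same in all 3 libraries, except that the intervals of preadipocytes and Aregs overlapped in *Pd*-KO. Preadipocytes had log2 ratios to wild-type of -1.19 [-1.20 to -1.17] in *Mgp*-KO and -2.17 [-2.20 to -2.15] in *Pd*-KO. Aregs had the smallest of the 4, -0.26 [-0.29 to -0.23] and -0.92 [-0.96 to -0.88]. Interstitial progenitors had -0.93 [-0.95 to -0.91] and -4.54 [-4.60 to -4.49], the largest *Apoe* ratio of any cell type in *Pd*-KO. After thinning, 69.2%, 33.4% and 6.43% of them had an *Apoe* UMI in wild-type, *Mgp*-KO and *Pd*-KO. Endothelial cells had one in 82.0%, 54.6% and 46.5%, more in each library, and were themselves at 2471, 1235 and 617 CPM. The share in interstitial progenitors does not by itself tell expression from free RNA, whose part was not tested.

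The number of *Apoe* UMIs per cell was set beside free RNA and cells of other lineages. The median wild-type interstitial progenitor held 7 *Apoe* UMIs, the same as the median epithelial cell, against 6 in endothelial cells, 4 in smooth muscle cells and pericytes and 3 in neurons. These medians are not adjusted for depth, which among these types was highest in the epithelial cells. Free RNA held *Apoe* at 6936 CPM in wild-type, 2080 in *Mgp*-KO and 449 in *Pd*-KO, with log2 ratios to wild-type of -1.74 [-1.82 to -1.66] and -3.95 [-4.03 to -3.87]. The ratio of interstitial progenitors was smaller in size than that of free RNA in *Mgp*-KO and larger in *Pd*-KO. The median preadipocyte held 150.5 *Apoe* UMIs in wild-type, 27 in *Mgp*-KO and 14 in *Pd*-KO, and endothelial cells 6, 2 and 1. The median Areg held 28.5, 12 and 8. Preadipocytes and Aregs were above endothelial cells in every library. When the mean of the endothelial cells was taken off the mean of the APCs, the log2 ratios of *Apoe* to wild-type were -1.92 and -3.98. The mean taken off is not adjusted for depth, and endothelial cells are no floor, so nothing on free RNA is read from these ratios.

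**Figure D3:**
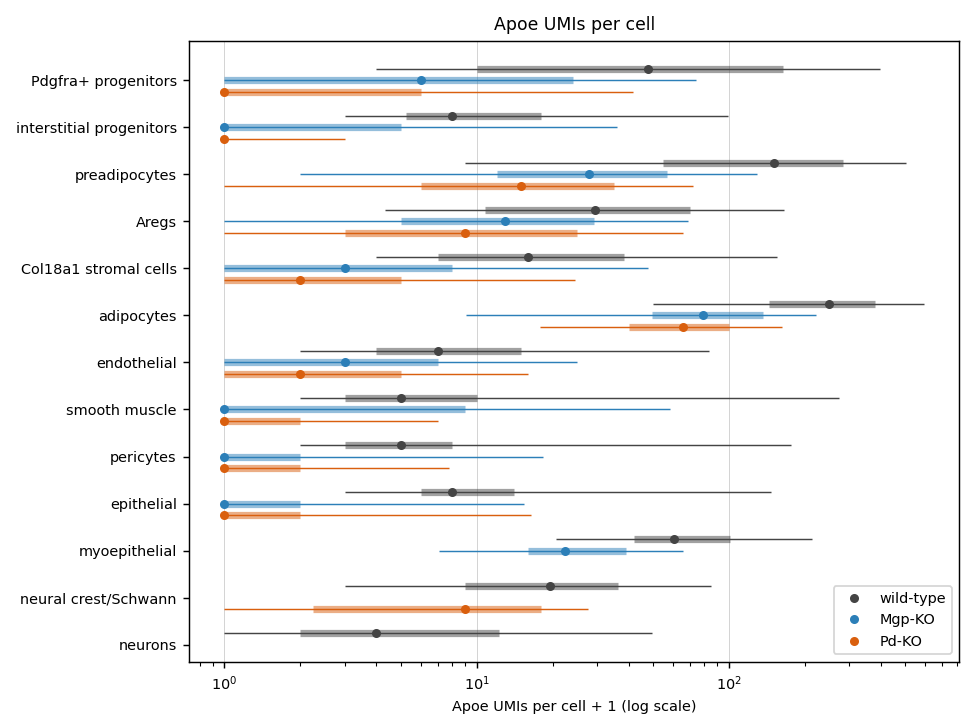
*Apoe* UMIs per cell plus 1 (x axis, log scale) by gated cell type and library. Points are medians over cells, thick bars run from the 25th to the 75th percentile and thin bars from the 5th to the 95th. Preadipocytes and adipocytes have medians of 150.5 and 249.5 UMIs in wild-type, and interstitial progenitors 7.

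The makeup of the APCs moved along with *Apoe*. Of the APCs, 34.8% passed the preadipocyte gate alone in wild-type, 16.5% in *Mgp*-KO and 10.5% in *Pd*-KO, and 26.3%, 43.3% and 59.4% passed the gate of interstitial progenitors. Another 22.7%, 13.6% and 15.6% passed several of the gates, and 7.25%, 16.5% and 5.99% passed none. The gates rest on genes that may themselves differ between genotypes. They need 4 detected markers for preadipocytes and 2 for interstitial progenitors, so passing can also depend on depth. These shares are therefore given only as what the pooled level was made from. With the shares of the progenitor groups held at those of wild-type, *Apoe* in the APCs came to 3277 CPM in *Mgp*-KO and 1604 in *Pd*-KO, with log2 ratios of -1.13 and -2.17, and *Apoc1* had -1.67 and -3.91. Summed over the 6 adipocyte markers, the level in the APCs was 183 CPM in wild-type, 56.0 in *Mgp*-KO and 40.1 in *Pd*-KO. The part of these cells in the result was not tested. The 7 markers of macrophages, which make much ApoE in most tissues, summed to 4.10, 2.06 and 3.16 CPM in the APCs, and *C1qa* was at 0.191, 0.0781 and 0.143 CPM over all barcodes with at least 2000 UMIs. In free RNA *C1qa* was at 154 CPM in wild-type, 1.27 in *Mgp*-KO and 0.897 in *Pd*-KO, beside *Apoe* at 6936, 2080 and 449, and the part of macrophages in free *Apoe* was not tested.

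*Apoe* outside the APCs was highest in adipocytes and myoepithelial cells. The few adipocytes that stayed in the fraction, 248, 43 and 36 cells, had 9510 CPM in wild-type, 7311 in *Mgp*-KO and 5641 in *Pd*-KO, with log2 ratios of -0.38 [-0.43 to -0.33] and -0.75 [-0.81 to -0.70], which are smaller than in preadipocytes. Myoepithelial cells, the contractile cells around mammary ducts, had 8020 CPM in 30 wild-type and 4531 in 102 *Mgp*-KO cells, while *Pd*-KO had only 18 such cells. Neural crest and Schwann cells had 4815 CPM in 154 wild-type and 2669 in 50 *Pd*-KO cells, a log2 ratio of -0.85 [-0.98 to -0.72]. In smooth muscle cells the mean and the median parted, as wild-type cells averaged 40.9 *Apoe* UMIs with a median of 4. After thinning, 73.6%, 35.1% and 18.8% of smooth muscle cells had an *Apoe* UMI. Mean and median also parted in wild-type pericytes (23.8 and 4), epithelial cells (26.0 and 7), endothelial cells (19.9 and 6) and interstitial progenitors (21.9 and 7). The sums of these types thus rest in part on the cells with most *Apoe* UMIs. Epithelial cells had 1101, 283 and 202 CPM, with log2 ratios of -1.96 [-2.04 to -1.88] and -2.45 [-2.62 to -2.28]. Endothelial cells had 2471, 1235 and 617 CPM, with intervals of the log2 ratio from -1.08 to -0.93 and from -2.06 to -1.94. The log2 ratio of *Apoe* was below 0 in all 10 cell types compared with wild-type in either knockout. The smallest ratios were those of Aregs in *Mgp*-KO and of adipocytes in *Pd*-KO. The cell types share libraries and free RNA, whose *Apoe* ratios, given above, were also below 0, and its part was not tested.

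**Figure D4:**
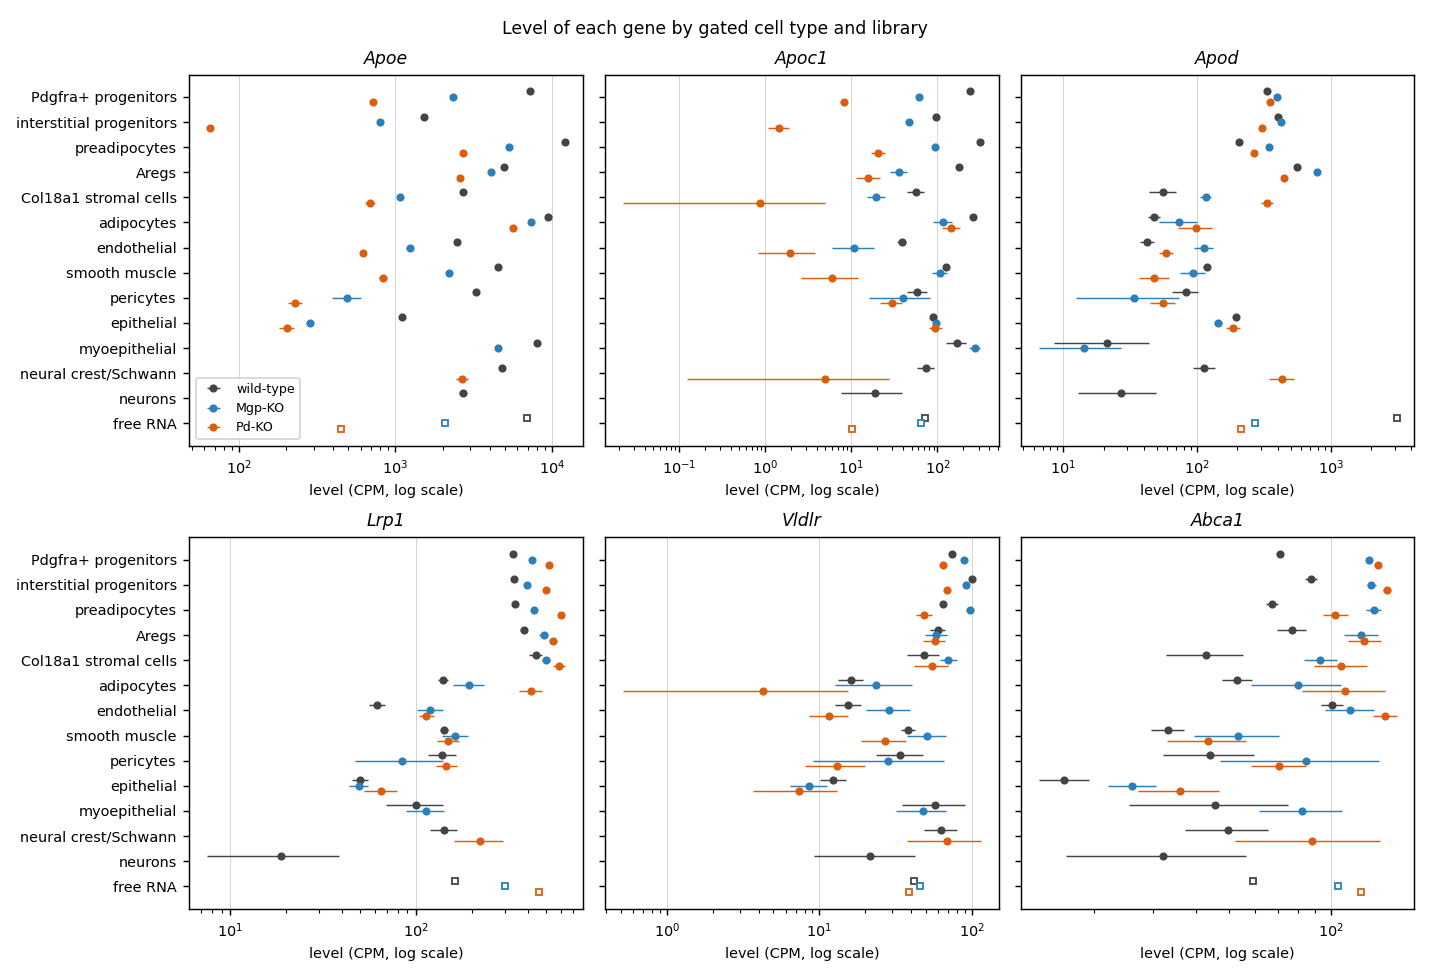
Level in CPM (x axis, log scale) of each of the 6 genes by gated cell type and library (y axis), for cell types with at least 30 cells and at least 1 UMI. Filled circles are sums over cells with 95% Poisson intervals, and open squares are free RNA. *Apoe* and *Apoc1* in wild-type lie above both knockouts in the progenitors, and *Lrp1* separates progenitors from other types in every library.

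*Apoc1* parted from *Apoe* outside the APCs. In wild-type it was at 313 CPM in preadipocytes, 261 in adipocytes, 176 in Aregs and 167 in myoepithelial cells, of which the last 2 had overlapping intervals. In epithelial cells *Apoc1* was at 87.9 CPM in wild-type, 96.4 in *Mgp*-KO and 94.6 in *Pd*-KO, with log2 ratios of 0.13 [-0.03 to 0.29] and 0.11 [-0.16 to 0.37], both intervals including 0. In preadipocytes the levels were 313, 94.4 and 20.5 CPM, with log2 ratios of -1.73 [-1.82 to -1.64] and -3.94 [-4.22 to -3.67]. In adipocytes they were 261, 115 and 144 CPM, and the ratios were -1.19 [-1.57 to -0.82] and -0.86 [-1.23 to -0.51]. Free RNA held 71.4, 64.5 and 10.2 CPM, below the wild-type APCs and near those of both knockouts, and the log2 ratio of *Mgp*-KO to wild-type in it was -0.15 [-0.68 to 0.38]. These values depend on the band of barcodes. At 101 to 500 UMIs *Apoc1* was at 171, 85.9 and 34.1 CPM, from only 20 UMIs in *Mgp*-KO and 14 in *Pd*-KO.

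*Apod* followed another pattern, highest in Aregs and interstitial progenitors of wild-type and *Mgp*-KO. In wild-type it was at 561 CPM in Aregs, 403 in interstitial progenitors and 206 in preadipocytes, and at 55.5 in *Col18a1* stromal cells. In *Mgp*-KO the first 3 were at 785, 427 and 344 CPM, and in *Pd*-KO at 448, 308 and 265. *Col18a1* stromal cells were at 55.5 CPM in wild-type, 116 in *Mgp*-KO and 335 in *Pd*-KO, with log2 ratios of 1.06 [0.71 to 1.43] and 2.59 [2.24 to 2.96], from 100, 412 and 131 cells. APCs that passed none of the 4 gates had 1520 CPM in wild-type, 588 in *Mgp*-KO and 1672 in *Pd*-KO, more than any gated group in wild-type and *Pd*-KO but less than Aregs in *Mgp*-KO. The gene was concentrated in few cells, since the 5% of wild-type APCs with most *Apod* UMIs held 50.6% of them, and the median APC held 2, 1 and 2 UMIs. Epithelial cells had 195 CPM in wild-type, on a level with preadipocytes within the counting intervals.

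Barcodes with few UMIs held much *Apod* in wild-type alone. It was at 3099 CPM in wild-type free RNA, against 273 in *Mgp*-KO and 213 in *Pd*-KO, and dropped to 649 CPM in wild-type barcodes of 101 to 500 UMIs and 272 in those of at least 2000. In the same wild-type free RNA *Hbb-bs*, a hemoglobin gene of red cells, was at 18764 CPM and *C1qa* at 154, against 749 and 1.27 in *Mgp*-KO. Their part in the *Apod* level was not tested. *Apoe* in wild-type had no such slope, with 6936, 4130, 3786 and 6347 CPM from the lowest band of UMIs to the highest.

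**Figure D5:**
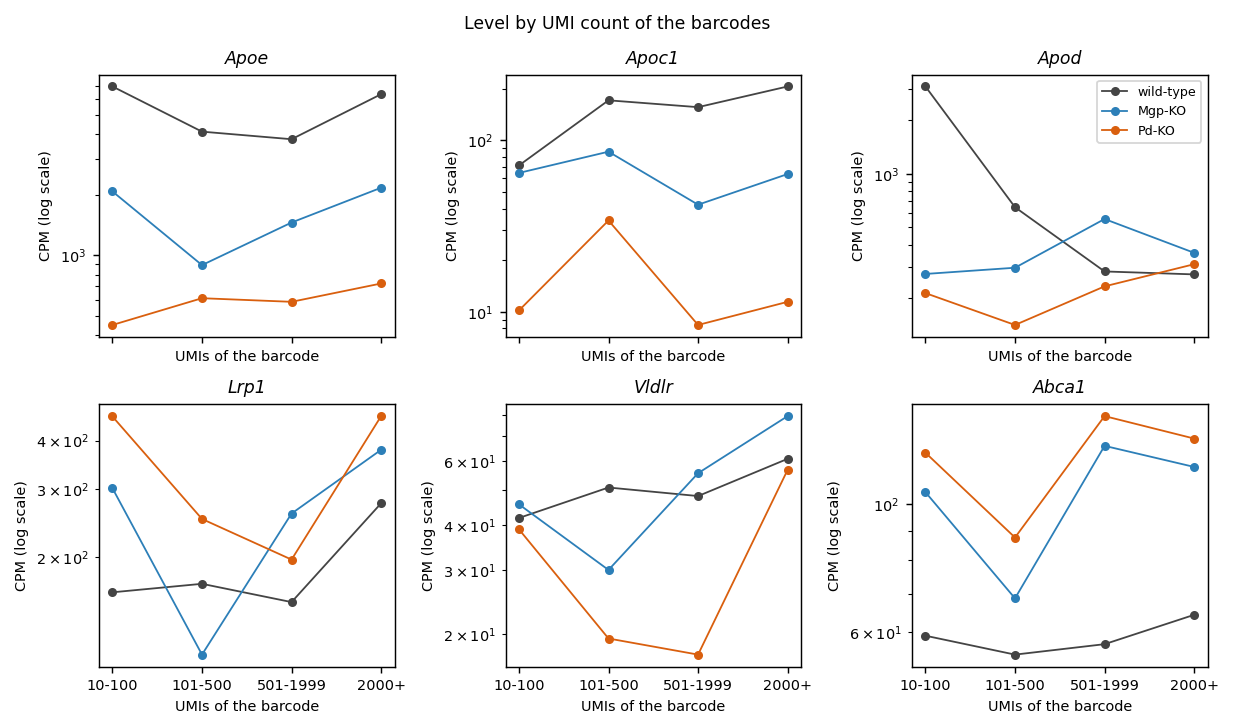
Level in CPM (y axis, log scale) of the 6 genes over all barcodes of a library, by the number of UMIs of the barcode (x axis, 4 bands). Each point is 1 sum over barcodes, and lines join the bands of a library. *Apod* in wild-type drops from 3099 to 272 CPM between the lowest and the highest band, and *Apoe* is highest in wild-type in every band.

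*Lrp1*, but not *Vldlr*, was higher in each progenitor group than in every other cell type. *Lrp1*, a large scavenger receptor that also clears proteases and binds matrix proteins, was at 335 to 440 CPM in the 4 wild-type progenitor groups and at 18.8 to 141 in the other types. After thinning, 47.6% of wild-type APCs had an *Lrp1* UMI against 8.46% of endothelial cells, and 56.5% against 9.59% in *Mgp*-KO and 63.2% against 8.56% in *Pd*-KO. In adipocytes *Lrp1* was at 141, 193 and 414 CPM, a log2 ratio in *Pd*-KO of 1.56 [1.33 to 1.78] from 36 cells. *Vldlr*, which binds ApoE and aids lipoprotein lipase in the uptake of triglyceride, was highest in wild-type interstitial progenitors at 101 CPM [97.5 to 105.3], against 64.5 in preadipocytes, and neural crest and Schwann cells, at 63.4, lay within the interval of the latter. In *Mgp*-KO the 2 groups were at 91.9 and 97.4 CPM, within overlapping intervals, and in *Pd*-KO at 69.1 and 48.6. In preadipocytes the log2 ratio to wild-type was 0.60 [0.49 to 0.70] in *Mgp*-KO and -0.41 [-0.60 to -0.22] in *Pd*-KO. *Vldlr* was low in adipocytes, at 16.1, 23.7 and 4.24 CPM.

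*Abca1* was spread more evenly. In wild-type it was highest in endothelial cells, at 101 CPM [93.5 to 109], followed by interstitial progenitors at 87.7, Aregs at 76.8 and preadipocytes at 67.1, each of the last 3 overlapping with its neighbor, and epithelial cells were lowest at 16.4. In endothelial cells the knockouts were at 114 and 144 CPM, with log2 ratios of 0.18 [-0.09 to 0.44] and 0.51 [0.35 to 0.68]. In preadipocytes *Abca1* was at 134 and 103 CPM, with log2 ratios of 1.00 [0.91 to 1.09] and 0.62 [0.49 to 0.76]. It was above wild-type in all 10 cell types of each knockout, and passed a log2 ratio of 1 in 2 types in *Mgp*-KO and in 3 in *Pd*-KO. Over all genes, the share higher past it ran by cell type from 6.84% to 16.8% in *Mgp*-KO and from 9.4% to 18.8% in *Pd*-KO. The cell types share the same libraries, and in the APCs *Abca1* was no higher than other genes of its span.

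The other genes of lipoprotein metabolism were described from a list of 94 by role. In the APCs, 80 of them had at least 50 UMIs over the 2 libraries of each comparison with wild-type. Of these, 9 were lower and 7 higher past a log2 ratio of 1 in *Mgp*-KO, and 13 lower and 11 higher in *Pd*-KO, with medians of 0.08 and 0.27. The shares over all genes used a higher minimum, of 100 UMIs, and so are not matched to the list. They were 3.01% lower and 17.9% higher in *Mgp*-KO and 5.83% lower and 20.7% higher in *Pd*-KO, with medians of 0.15 and 0.19. The group listed as apolipoproteins also holds genes that are not apolipoproteins themselves, such as the receptor *Apobr* and *Apold1*. Of its 7 measured genes, 3 were lower in both knockouts. *Clu* (clusterin, or ApoJ), the highest, was at 29.1, 10.6 and 7.37 CPM with log2 ratios of -1.46 and -1.98. *Apoc4*, which lies in the *Apoe* cluster, was at 0.538, 0.121 and 0.0680 CPM, and *Apold1*, an endothelial gene related to the ApoL family, at 1.70, 0.499 and 0.765 CPM. These last 2 rest on few UMIs. Among 17 receptors, 1 was lower and 3 higher in *Mgp*-KO, and 3 lower and 3 higher in *Pd*-KO. *Cd36*, the scavenger receptor that takes up fatty acids and oxidized LDL and the highest of the group, was at 194, 90.8 and 61.4 CPM, with log2 ratios of -1.10 and -1.66. *Lrp4*, a receptor for agrin and sclerostin, was at 1.82, 4.19 and 6.20 CPM, and *Lrp1b*, which spans 2058 kb, was at 0 UMIs in wild-type, which allows up to 0.0293 CPM, against 0.922 and 1.14 CPM, at least 31.4-fold and 38.8-fold higher than 3 UMIs in that library. *Lrp4* spans 56.3 kb, and genes of long span were higher in both knockouts, as given above.

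Genes that handle the triglyceride of lipoproteins included the highest of the list. Of 10 lipases and transfer proteins measured, 2 were lower and 1 higher in *Mgp*-KO and 5 lower and 0 higher in *Pd*-KO, with medians of -0.46 and -0.85. The shares over all genes with at least 100 UMIs were 3.01% lower and 17.9% higher in *Mgp*-KO, and 5.83% lower and 20.7% higher in *Pd*-KO. *Lpl*, lipoprotein lipase, was at 2543, 1300.1 and 1146 CPM, with log2 ratios of -0.97 [-0.98 to -0.96] and -1.15 [-1.16 to -1.14]. *Angptl4*, which inhibits it, was at 369, 142 and 132 CPM (log2 ratios of -1.38 and -1.48). *Gpihbp1*, which anchors the lipase on capillary endothelium, was at 6.12, 1.33 and 2.38 CPM in the APCs, where the summed level of the 6 endothelial markers was 32.5, 10.2 and 13.7 CPM, and its part was not tested.

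Genes of cholesterol efflux and synthesis were described next. Of 10 lipid transporters, 1 was lower and 1 higher in *Mgp*-KO and 0 lower and 4 higher in *Pd*-KO. Their median log2 ratios were 0.44 and 0.91. The 4 higher in *Pd*-KO were *Abca3*, *Abca6*, *Abca9* and *Abcg1*, whose spans lie between 51.8 and 83.4 kb. Bins of all genes with median spans of 51.8, 64.5 and 83.4 kb had median log2 ratios of 0.52, 0.66 and 0.85 in *Pd*-KO. Among all genes with at least 100 UMIs, 17.9% were higher in *Mgp*-KO and 20.7% in *Pd*-KO, and 3.01% and 5.83% lower. The part of span in these counts was not tested. *Abca8a*, the highest of the transporters, was at 94.8, 133 and 134 CPM. *Abcg1*, which passes cholesterol on to HDL, was at 0.607, 1.66 and 2.63 CPM with log2 ratios of 1.46 and 2.12, and spans 60.3 kb. Of 16 genes of cholesterol handling and synthesis, 0 were lower and 1 higher in *Mgp*-KO and 1 lower and 1 higher in *Pd*-KO. *Npc2*, which moves cholesterol out of lysosomes, was the highest at 522, 545 and 457 CPM, and *Soat2*, which esterifies cholesterol, was the one higher in both at 0.157, 1.18 and 1.97 CPM. Of 11 transcription factors, *Pparg*, the master regulator of adipogenesis, was the highest at 44.0, 41.4 and 60.9 CPM, the retinoid X receptor *Rxrg* was lower in both knockouts (log2 ratios of -1.86 and -1.30), and *Ppara*, a fatty acid receptor, was higher (1.86 and 2.16) at 0.832, 3.01 and 3.72 CPM. *Ppara* spans 67.8 kb. Of 9 chaperones, adaptors and turnover genes, *Lrpap1*, the chaperone of *Lrp1*, was the highest at 130, 111 and 97.3 CPM.

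The genes most like each member were sought over 28 units of 1 cell type in 1 library, each with at least 50 cells, by Pearson's r of log2(CPM + 1). The units share libraries and free RNA, and the values are a description. *Apoe* was most like *Atf4* (r = 0.78), *Sertad1* (0.72) and *G0s2* (0.70), and *Apoc1* most like *AA465934* (0.77), *Mt1* (0.77) and *Gnl3* (0.76), while *Apoe* and *Apoc1* had r = 0.54 with each other. *Lrp1* was most like *Col5a2* (0.97), *Mfap2* (0.97) and *Fkbp9* (0.96). *Apod* was most like *Smoc2* (0.82), *Glt8d2* (0.82) and *Gm10115* (0.80), *Vldlr* most like *Cbr3* (0.87), *Dsel* (0.87) and *Zfp354c* (0.86), and *Abca1* most like *Rgl1* (0.93), *Zhx3* (0.88) and *Arsa* (0.87). Among the members themselves, *Lrp1* and *Vldlr* had the highest r, 0.76.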

How the data were processed

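The authors deposited raw counts, the number of UMIs per gene and barcode before cell calling, from 10x Genomics libraries. The processing notes name Cell Ranger 6.1.1 and GRCm39, the methods mm10, and the file headers versions 4 and 7.1.0; the methods state default settings, and no source used here names the handling of introns, whose default depends on the version. The 6 genes, the marker and pathway lists and the comparisons were chosen with earlier results of these data known. Barcodes with at least 2000 UMIs and at most 10% mitochondrial UMIs were kept. A cell was gated with at least 3 markers of a list detected (2 for interstitial progenitors, 4 for preadipocytes) and 10 marker UMIs per 10000; cells of several lineages (97, 55 and 44 in wild-type, *Mgp*-KO and *Pd*-KO) were left out, which also removes part of the doublets, and no doublet caller was run. Cells with no gate numbered 683, 2386 and 1174. Counts were summed per cell type and library and divided by the sum of all genes (CPM). The 95% intervals are exact ones, Poisson for a CPM and binomial, conditional on the sum of both counts, for a log2 ratio; counts of genes past the fold used 0.5 added UMIs. With 1 library per genotype no p-value was computed. Named genes of the list are those past a log2 ratio of 1 with the same sign in both knockouts, and the highest of each role. The log2 ratio, its interval and the fold call were run on simulated Poisson counts, and the gating, thinning and corrections were not. The total was 184102026 UMIs in wild-type, 93212243 in *Mgp*-KO and 83942865 in *Pd*-KO. Python 3.11.15 with numpy 2.4.6, scipy 1.17.1 and pandas 2.3.3 was used.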

Additional observations from a re-analysis of the deposited data

Results flagged for a closer look

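*Apod* was the only one of the 6 genes that was past a log2 ratio of 1 in opposite directions in cell types with at least 50 cells in both libraries. In *Pd*-KO over wild-type it was higher in *Col18a1* stromal cells (log2 ratio 2.59) and in neural crest and Schwann cells (1.93), and lower in smooth muscle cells (-1.30). The share of neural crest and Schwann cells with an *Apod* UMI was lower, however, at 30.5% of 154 wild-type and 14.0% of 50 *Pd*-KO cells. After thinning it was 14.3% and 6.0%, so the higher sum there came from few cells. With 1 library per genotype the difference between cell types was not tested.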

How the results depend on the processing

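*Apoe* and *Apoc1* stayed lower past a log2 ratio of 1 in the APCs of both knockouts under each of the 10 alternatives run for them. Over these, *Apoe* lay between -1.92 and -1.13 in *Mgp*-KO and between -3.98 and -2.17 in *Pd*-KO, and *Apoc1* between -2.11 and -1.67 and between -5.05 and -3.91. With the median over genes of like span taken off, *Abca1* and *Lrp1* came to lie below 0 in both knockouts. With free RNA taken off, 1 member was higher in each knockout instead of 0: *Apod*, at 2.37 and 2.22, from an estimated 8.48% of free RNA in wild-type. *Apod* also turned below 0 with cells weighted equally (-0.14 and -0.25) and with cells of at most 20000 UMIs (-0.03 and -0.18), and by median-ratio scaling in *Pd*-KO (-0.10). The cause of these changes was not tested. Over all genes in *Mgp*-KO, correction for span gave 681 lower and 1196 higher genes against 419 and 2487, and a minimum of 20 UMIs gave 771 and 3879. In *Pd*-KO, correction for span gave 1367 higher genes against 2860, a minimum of 20 UMIs 1297 lower genes against 805, and fixed shares of progenitor groups 534. The subtraction of endothelial UMIs and the fixed shares were chosen after seeing the data. Giving cells of several lineages to 1 lineage left the APCs as they were. No paired analysis was possible because each genotype had 1 library, and none could be left out. Genes of the list with under 50 UMIs were not described.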
